A study of Mus musculus with 39 samples.

Results

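Glutamate and GABA are the main excitatory and inhibitory transmitters of the brain, and their receptors are built from families of related subunits. AMPA, kainate, delta and NMDA receptors are ligand-gated ion channels or channel-like proteins of the glutamate family, metabotropic glutamate receptors signal through G proteins, and GABA-A receptors are chloride channels. In the embryonic cortex both transmitters also act on dividing progenitors, before most synapses form. Notch signalling keeps these progenitors undifferentiated: ligand binding frees the Notch intracellular domain, which joins the DNA-binding protein RBPJ, and without Notch RBPJ can hold target genes silent together with co-repressors.

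The receptor genes were taken by symbol from the protein-coding genes of the annotation (Gria, Grik, Grid, Grin, Grm and the GABA-A genes Gabra, Gabrb, Gabrg, Gabrd, Gabre, Gabrp, Gabrq and Gabrr). This gave 45 of 21938 genes, of which 26 encode glutamate receptors and 19 encode GABA-A subunits, and none was chosen by its binding. Binding was mapped in the cortex of wild-type MF1 mouse embryos by Targeted DamID, in which a DNA adenine methylase (Dam) fused to the protein of interest marks nearby GATC sites. Plasmids were electroporated in utero at E13.5 and the tissue was dissected at E14.5. The Hes5 promoter drove the constructs in radial glial cells (RGCs), the cortical stem cells, and the promoter Tα1, a fragment upstream of Tuba1a, drove them in intermediate progenitor cells (IPCs), their dividing daughters. The RGC RBPJ group held 3 samples with human RBPJ1, the RGC Notch group 4 samples (2 with the mouse Notch intracellular domain NICD and 2 with NdECD, a Notch without its extracellular part), the IPC RBPJ group 3 samples with human RBPJ1 and the IPC Notch group 4 samples with NICD. Untethered Dam under the same promoters gave 5 RGC and 4 IPC control samples, and the other 16 of 39 samples were not used here. All of the fusions were expressed from plasmids, so the lists show binding of introduced protein in either cell type, and the promoters, not a sort, set the cell type. The lists hold peak positions with no expression, so the cell types could not be checked against marker genes.

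Each list holds the peaks of a group, combined over its samples. No value per sample, peak height or read depth could therefore be given, and no difference between groups could be tested against replicate spread. The lists held 14097 (RGC RBPJ), 3702 (RGC Notch), 5497 (IPC RBPJ) and 2157 (IPC Notch) nuclear peaks, and the 4 lists merged into 20809 nuclear consensus peaks. A consensus peak was given to whichever protein-coding gene had a start site closest to it. The stretch of genome nearer to a gene's start sites than to those of any other protein-coding gene is called its territory. Intervals are 95% and cover counting error only: Wilson intervals for shares and exact Poisson intervals for peaks per Mb. Coordinates are on mm10.

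Of the 45 receptor genes, 28 were nearest to at least 1 consensus peak (62.2%, 47.6 to 74.9), beside 39.7% of all protein-coding genes. Together they held 92 consensus peaks, 0.442% of all, in a territory of 21.9 Mb, 0.829% of the nuclear genome. Glutamate receptor genes held 83 of these peaks and GABA-A genes 9. The 17 genes with no peak included Grin1, Grin2d and Grin3b of the NMDA receptors, the kainate subunit Grik5, the metabotropic Grm2, and the GABA-A genes Gabra4, Gabra5, Gabrb1, Gabrb2, Gabrd, Gabrr1, Gabrr2 and Gabrr3.

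**Figure D1:**
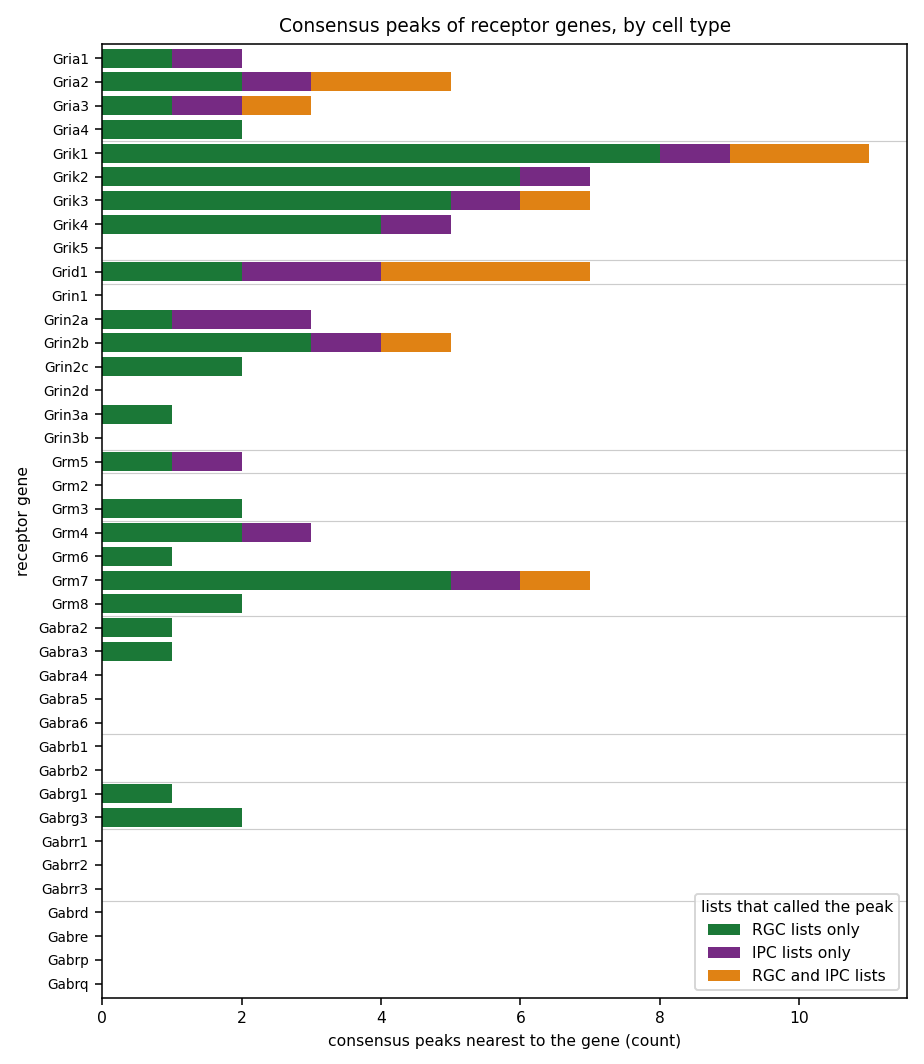
Consensus peaks nearest to 40 of the 45 receptor genes, ordered by receptor class (y axis) with the number of peaks on the x axis; colours give whether the peak was called in RGC lists only, in IPC lists only or in both. Grik1 has the longest bar with 11 peaks, and all 7 genes of the rho and last GABA-A groups (Gabrr1, Gabrr2, Gabrr3, Gabrd, Gabre, Gabrp and Gabrq) stand at 0.

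The known DNA word of RBPJ is TTCCCA, and a longer form read here is TTCCCAC. The windows below come from receptor peaks called in 2 or more lists and lie inside the peaks of at least 2 of these lists, because these are the places where more than 1 fusion or cell type was called. Windows over exons are left out. Capitals mark TTCCCAC, and each window is written 5′ to 3′ on the strand that carries the word.
Gria2, chr3:80396742-80396788, minus strand: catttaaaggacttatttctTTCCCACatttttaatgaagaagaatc
Gria3, chrX:41399836-41399882, minus strand: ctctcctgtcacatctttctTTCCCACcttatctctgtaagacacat
Grid1, chr14:35008796-35008842, minus strand: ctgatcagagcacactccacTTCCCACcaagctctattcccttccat
Grid1, chr14:35113483-35113529, plus strand: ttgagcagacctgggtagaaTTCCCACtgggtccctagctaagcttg
Grin2b, chr6:135932359-135932405, plus strand: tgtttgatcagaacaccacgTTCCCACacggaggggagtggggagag
Grin2b, chr6:136164318-136164364, minus strand: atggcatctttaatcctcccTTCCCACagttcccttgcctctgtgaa
Grin2b, chr6:136164898-136164944, plus strand: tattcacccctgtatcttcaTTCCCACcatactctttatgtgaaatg
Grin2c, chr11:115232057-115232103, plus strand: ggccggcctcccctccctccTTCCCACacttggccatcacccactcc
Of the 15 receptor peaks called in 2 or more lists, 8 held TTCCCAC (53.3%), beside 57.9% of all consensus peaks called in 2 or more lists. Among the 77 receptor peaks called in 1 list, 36 held it (46.8%, beside 37.7% of all such peaks). A match is a word in the sequence and not a measured site.

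Peaks also lay over the start sites of Gria2, Gabrg3 and Gabra2, and the 250 bases before these starts, from RefSeq on GRCm38, are printed because they lie inside those peaks. Capitals mark GATC, which Dam can methylate, and TTCCCA.
Gria2, chr3:80802836-80803085, minus strand: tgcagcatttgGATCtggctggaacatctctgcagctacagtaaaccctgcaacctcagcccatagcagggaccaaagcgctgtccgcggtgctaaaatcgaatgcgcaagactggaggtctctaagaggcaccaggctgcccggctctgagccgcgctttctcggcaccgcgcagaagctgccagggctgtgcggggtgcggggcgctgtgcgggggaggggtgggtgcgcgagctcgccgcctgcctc
Gabrg3, chr7:57387216-57387465, minus strand: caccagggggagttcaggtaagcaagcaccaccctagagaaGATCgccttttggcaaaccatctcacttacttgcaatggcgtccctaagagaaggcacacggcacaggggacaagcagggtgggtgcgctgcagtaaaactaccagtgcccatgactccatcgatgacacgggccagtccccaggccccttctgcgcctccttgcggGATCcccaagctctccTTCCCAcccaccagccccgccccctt
Gabra2, chr5:71095850-71096099, minus strand: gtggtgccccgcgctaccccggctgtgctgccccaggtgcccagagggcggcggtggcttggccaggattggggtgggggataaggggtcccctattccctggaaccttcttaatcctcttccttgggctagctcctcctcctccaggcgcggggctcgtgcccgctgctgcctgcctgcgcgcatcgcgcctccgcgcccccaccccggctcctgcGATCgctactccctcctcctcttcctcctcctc
The Gabrg3 promoter holds the word TTCCCA, and the Gria2 and Gabra2 promoters hold no match within these bases. On either strand 21.6% of 32851 RefSeq promoters of this length hold TTCCCA and 5.42% hold TTCCCAC, which contains it. The promoter table matched 30 of the 45 receptor genes.

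By list, RBPJ in RGCs reached the most receptor genes. Consensus peaks called in the RGC RBPJ list were nearest to 26 receptor genes (57.8%, beside 31.7% of all genes), and these included every glutamate receptor gene that had a peak, 21 of 26. The IPC RBPJ list reached 14 receptor genes (31.1%, beside 16.4%), of which 13 encode glutamate receptors. The RGC Notch list reached 9 of the 45 receptor genes (beside 11.7%), among them Gria1, Gria2, Grik1, Grik2, Grik3, Grik4, Grin2b and Grin2c. The IPC Notch list reached 4 (8.89%, beside 6.98%), among them Grid1, Grik1 and Grin2b. Most receptor peaks, 54 of 92 (58.7%), were called for RBPJ in RGCs alone, beside 52.1% of all consensus peaks.

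The share of genes with a peak has to be read against territory size, because receptor genes are long. The median gene length was 349 kb for the 28 receptor genes with a peak and 31.1 kb for the 17 without, and the median territories were 521 kb and 54.0 kb. Among receptor genes with a territory of 300 kb or more, 23 of 24 had a peak (95.8%), beside 83.4% of all genes with such a territory, and their median was 2 peaks beside 3. The exception was Gabrb2, the GABA-A beta subunit with the largest territory among peakless receptor genes (358 kb). Among receptor genes with smaller territories, 5 of 21 had a peak (23.8%), beside 35.3% of all genes of that size. Per Mb of territory the receptor genes held 4.19 consensus peaks (3.38 to 5.14), beside 7.86 over the whole genome, a density at which the same territory would hold 172 peaks.

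**Figure D2:**
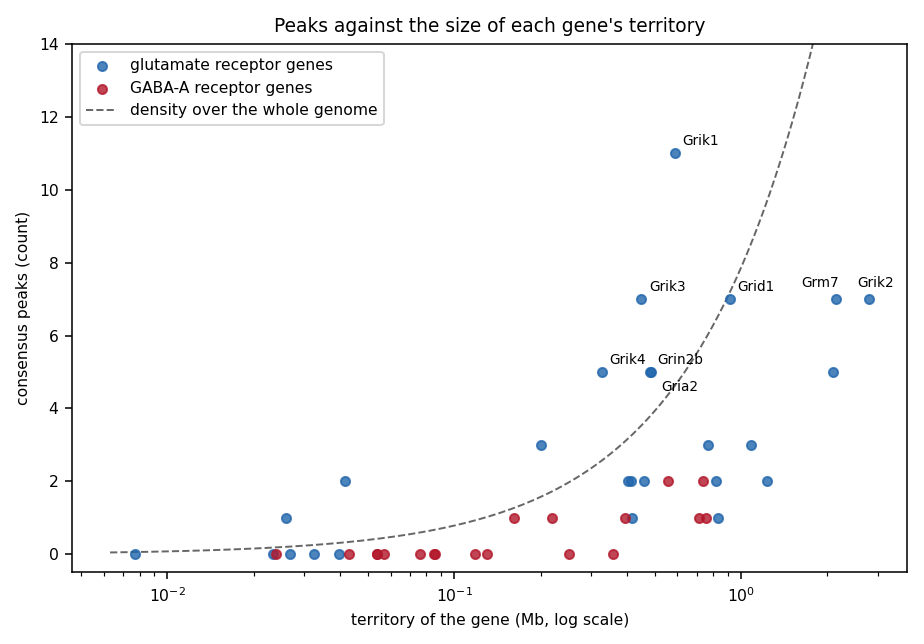
Consensus peaks (y axis, count) against territory in Mb (x axis, log scale) for the 45 receptor genes, glutamate in blue and GABA-A in red; the dashed line is the density over the whole genome, 7.86 peaks per Mb. Above the line lie 8 genes: Grik1, Grik3, Grik4, Gria2 and Grin2b, and with 3 peaks or fewer Grin2c, Grm6 and Grm4 (48.2, 38.4 and 15.0 per Mb). Grm7 and Grik2, with large territories, lie below it.

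The density moved with base composition. Receptor territories with a GC content under 40% held 55 peaks in 16.7 Mb, or 3.29 per Mb (2.48 to 4.29), beside 3.54 for all genes in that class. In the class of 40% to 45% GC the receptor genes held 4.77 per Mb (2.87 to 7.44), beside 9.22 for all genes. At 45% GC or more they held 14.3 per Mb (8.50 to 22.7), beside 7360 peaks in 507 Mb for all genes, a value inside that interval. The receptor interval excluded the value of all genes only in the middle class, which held Grid1, Grin2a, Grin2b, Gria1, Gabrg3 and 6 GABA-A genes with no peak. The median density of GATC sites was 2.49 per kb in receptor territories with a peak, 2.33 in those without and 2.49 over all genes.

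**Figure D3:**
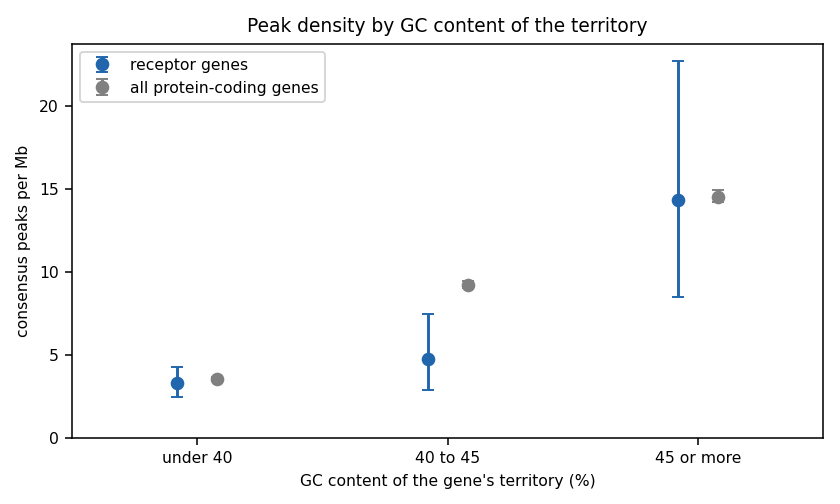
Consensus peaks per Mb of territory (y axis) in 3 classes of territory GC content (x axis) for the receptor genes (blue) and all protein-coding genes (grey); bars are exact 95% Poisson intervals. The receptor values are 3.29, 4.77 and 14.3 per Mb, and all genes stand at 3.54 and 9.22 in the lower classes and within the receptor interval in the highest.

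Glutamate receptor genes held 4.86 peaks per Mb (3.87 to 6.03) and GABA-A genes 1.85 (0.845 to 3.51), so the 2 intervals did not overlap. The gap was present within the territories under 40% GC, with 3.71 per Mb (2.74 to 4.92) for 12 glutamate receptor genes and 1.85 (0.745 to 3.82) for 10 GABA-A genes, but there the intervals overlapped. For comparison, 94 potassium channel genes, which encode another large family of neuronal channels, held 6.29 per Mb (5.35 to 7.35) and 97 cadherin and protocadherin genes, which encode adhesion proteins, held 3.65 (3.16 to 4.20). At least 1 peak was found at 66.0% of the potassium channel genes and 36.1% of the cadherin genes, beside 80.8% of the glutamate receptor genes and 36.8% of the GABA-A genes. In the same order, the median territories were 100, 16.4, 453 and 130 kb, so these shares come from territories of unlike size. Differences between families were not tested, since genes are not replicates.

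Peaks were concentrated at few receptor genes. Of the 28 genes, 8 had 1 peak, 11 had 2 or 3, and 9 had 5 or more (9 of 45 receptor genes, beside 4.70% of all genes), and those 9 held 59 of the 92 peaks (64.1%). Among them were Grik1 with 11, Grik2, Grik3, Grm7 and Grid1 with 7 each, and Gria2, Grin2b and Grik4 with 5 each. Only Grik1 had a density interval entirely above the genome value, and Grik2, Grm7, Grm8, Grin3a and Gabrg1 were among the genes with intervals entirely below it. All the genes below it have territories under 40% GC, and each of their intervals held the 3.54 per Mb of all genes in that class. Grik1, in the same class, lay above 3.54 too, but its territory has 39.7% GC, close to the bound of that class. Its lower limit, 9.35 per Mb, lay just above the 9.22 of the next class, 40% to 45% GC. Gria1 (0.297 to 8.86 per Mb) lay below the 9.22 of that class, which is its own.

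Kainate receptors carried more peaks than any other class. Kainate subunits form cation channels that tune transmitter release and early network activity. Their 5 genes held 30 peaks in 4.20 Mb, or 7.14 per Mb (4.82 to 10.2), close to the genome value. Grik1, which encodes a subunit that can form channels alone, held 11 peaks in a territory of 587 kb, 18.7 per Mb (9.35 to 33.5), where the genome density would give 4.62. It ranked 186 among all genes by number of peaks, and the highest count of any gene was 47. The Grik1 peaks were spread over 452 kb with a median gap of 32.9 kb, and 10 of the 11 had their midpoint inside the gene. From its 5′ end, the peak over the Grik1 start site at chr16:88288393-88291682 and the peaks at chr16:88205217-88205625, chr16:88188324-88188770, chr16:88094216-88098227 and chr16:87968820-87970353 were called for RBPJ in RGCs alone. The peak at chr16:88255309-88258412 was called for RBPJ in both cell types. The peak at chr16:88111647-88113922, in an intron 55.5 kb from the nearest start site, was called for RBPJ in RGCs and for both RBPJ and Notch in IPCs. Notch in RGCs was called alone at chr16:88006149-88009358 and together with RBPJ at chr16:87915659-87918755. The peak at chr16:87945217-87946105 was called for RBPJ in IPCs alone, and the last one, at chr16:87839840-87843933, lay beyond the end of the gene and was called for RBPJ in RGCs. Grik1 and Grin2b were the only receptor genes with a peak in each of the 4 lists.

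Grik3 and Grik4 had comparable densities, 15.6 per Mb (6.28 to 32.2) and 15.3 (4.96 to 35.6). Unlike that of Grik1, their territories are in the class of 45% GC or more (49.6% and 47.9%). All genes of that class held 7360 peaks in 507 Mb, a density inside both intervals. At Grik3, which like Grik1 encodes a subunit of low agonist affinity, a Notch peak in RGCs at chr4:125484439-125489279 ended 1.42 kb from the start site, and 11.4 kb away chr4:125477726-125479314 was called for RBPJ in both cell types. RBPJ in RGCs was called at chr4:125313285-125315623, 175 kb upstream, in an intron at chr4:125627253-125630656, and beyond the gene at chr4:125714520-125719870 and chr4:125726975-125729962, while RBPJ in IPCs was called in an intron at chr4:125644746-125647120. All 5 peaks of Grik4, whose product needs a partner subunit to form a channel, lay within the gene. They were called for RBPJ in RGCs over the start site at chr9:42942837-42944949 and at chr9:42672411-42675360 and chr9:42780142-42781957, at chr9:42786875-42790006 for Notch in RGCs, and at chr9:42863247-42865503 for RBPJ in IPCs, and none was shared between lists. Grik2 had as many peaks as Grik3 in a territory of 2800 kb (95% interval 1.01 to 5.15 per Mb). Over its start site RBPJ in RGCs was called at chr10:49782966-49785499, and 391 bp from a Grik2 start site RBPJ in IPCs was called at chr10:49787271-49788363, with a gap of 1.77 kb between these peaks. The other Grik2 peaks were called in RGCs, for Notch at chr10:49317797-49318533 and for RBPJ at chr10:49500156-49501765, chr10:49716854-49718547, chr10:48988799-48990261 and chr10:47643737-47646546, the last 1460 kb from the nearest Grik2 start site. Grik5, the other high-affinity subunit, had no peak in its territory of 39.8 kb.

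**Figure D4:**
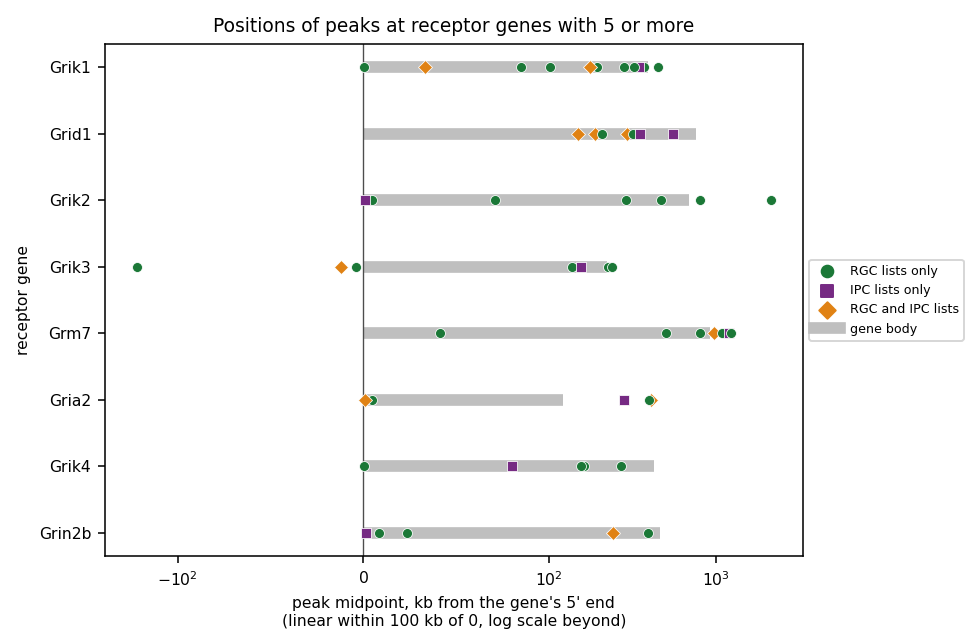
Midpoints of consensus peaks at 8 receptor genes with 5 or more peaks (y axis), as distance in kb from the gene's 5′ end (x axis, linear within 100 kb of 0 and logarithmic beyond); grey bars are gene bodies, and marker shape and colour give whether RGC lists, IPC lists or both called the peak. Peaks of Grik1, Grik4, Grid1 and Grin2b lie within or at the edge of the gene, apart from the most distal Grik1 peak, and those of Grik2, Grik3, Grm7 and Gria2 extend beyond it.

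Delta receptors act at synapses as partners of cerebellins and neurexins. Grid1 had 7 peaks, all in introns, and 3 of them were shared between cell types: chr14:34967824-34970487 was called for RBPJ in RGCs and Notch in IPCs, chr14:35006564-35009536 for RBPJ in both, and chr14:35109766-35114313 for RBPJ in both and Notch in IPCs. Grid1 had further RBPJ peaks in RGCs at chr14:35025750-35029429 and chr14:35137319-35140379, an RBPJ peak in IPCs at chr14:35171430-35172857 and a Notch peak in IPCs at chr14:35374424-35375973. Grid1 had no peak over a start site and no Notch peak in RGCs, and its density lay close to that of the genome (7.67 per Mb, 3.08 to 15.8).

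All 4 AMPA receptor genes, whose channels carry most fast excitatory transmission, had peaks, 12 in 2.84 Mb (4.23 per Mb, 2.19 to 7.39). Gria2 encodes the subunit that makes the channel impermeable to calcium, and it was the only receptor gene whose start-site peak was called in 2 lists. This peak, at chr3:80800880-80803390, was called for RBPJ in RGCs and in IPCs, and the smaller of the list peaks lay wholly within the larger (1796 bp shared). An RBPJ peak in RGCs at chr3:80797551-80798878 lay 3.70 kb from a Gria2 start site. The other Gria2 peaks lay 281 to 405 kb away in intergenic sequence, at chr3:80396288-80397155 for Notch in RGCs and RBPJ in IPCs, at chr3:80403545-80404225 for RBPJ in RGCs and at chr3:80520460-80521560 for RBPJ in IPCs. Gria3, on the X chromosome, had an RBPJ peak of both cell types 83 bp from its start site at chrX:41399379-41400771, an RBPJ peak in IPCs at chrX:41003924-41005328 and an RBPJ peak in RGCs at chrX:41518164-41520665. Gria1 had a peak of Notch and RBPJ in RGCs 266 kb away, at chr11:56742062-56745638, and an RBPJ peak in IPCs still farther, at chr11:56538578-56539831. Gria4 had 2 RBPJ peaks in RGCs, the nearer at 7.08 kb.

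NMDA receptors need the subunit encoded by Grin1, which had no peak in its territory of 32.5 kb. Of the regulatory subunits, Grin2b, the main one of the embryonic brain, had 5 peaks, all in its introns, or 10.4 per Mb (3.38 to 24.3). The peak over a Grin2b start site at chr6:136171283-136173025 was called for RBPJ in IPCs alone. Notch and RBPJ in RGCs were both called at chr6:136164108-136165663, 6.23 kb from a start site, RBPJ in RGCs and Notch in IPCs at chr6:135930448-135932921, and RBPJ in RGCs alone at chr6:136149229-136150142 and chr6:135781754-135783936. Grin2a, whose product becomes more prominent after birth, had 3 peaks in 769 kb, an RBPJ peak in RGCs at chr16:9532337-9535786 and RBPJ peaks in IPCs at chr16:9557202-9558838 and chr16:9771246-9772173. Grin2c, a cerebellar subunit, had 2 peaks in a territory of 41.5 kb. Notch in RGCs was called across the 3′ end of the gene at chr11:115246440-115252308, the widest receptor peak (5869 bp), and Notch and RBPJ in RGCs were both called at chr11:115230387-115233627, inside an intron of Tmem104. Grin3a, a glycine-binding subunit, had 1 RBPJ peak in RGCs, 429 kb away.

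The 8 metabotropic receptor genes held 18 peaks, and none of the 18 was called in a Notch list, beside 25.4% of all consensus peaks (17 of the 92 receptor peaks, 18.5%). The group III genes Grm4, Grm6, Grm7 and Grm8, which encode mostly presynaptic inhibitory receptors, held 13 of them. Grm7 had 7 peaks in 2140 kb (3.28 per Mb, 1.32 to 6.75). RBPJ in RGCs was called at chr6:110686472-110687632, chr6:111145733-111148380 and chr6:111448939-111450329 in introns and beyond the gene at chr6:111730416-111733354 and chr6:111874775-111876017, RBPJ in IPCs at chr6:111843631-111844929, and RBPJ in both at chr6:111621607-111624550. Grm4 had RBPJ peaks in RGCs at chr17:27421787-27423470 and chr17:27478947-27481585 and an RBPJ peak in IPCs at chr17:27384952-27386571. Grm6, known for its role in retinal bipolar cells, had a single RBPJ peak in RGCs that ended 43 bp from a start site, and Grm8 had 2 such peaks, each over 300 kb away. In group I, Grm5 had 1 RBPJ peak in each cell type. In group II, Grm3 had 2 RBPJ peaks in RGCs and Grm2 none.

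GABA-A receptor genes lie mostly in arrays, and 16 of the 19 fell into 5 arrays of genes within 1 Mb of each other. All 9 GABA-A peaks were in these arrays. The 3 genes outside them, Gabrd, Gabrp and Gabrr3, have territories of 24.0, 42.8 and 53.9 kb, a small part of the 4.87 Mb of all GABA-A genes. None of the 9 peaks was called in more than 1 list, beside 17.1% of all consensus peaks, and 9 peaks are few for such a share. Gabrg3, a gamma subunit, had an RBPJ peak in RGCs over its start site at chr7:57386977-57388125 and another at chr7:57314443-57314701, and Gabra5, in the same array, had none. The array on chromosome 5 (Gabrg1, Gabra2, Gabra4 and Gabrb1) held 2 peaks, or 1.40 per Mb, and the interval of 0.169 to 5.04 lay below the genome value but held the 3.54 of all genes under 40% GC. These were an RBPJ peak in RGCs over the start site of Gabra2, an alpha subunit already used in the embryo, at chr5:71094981-71096853, and 1 in RGCs near Gabrg1. The X-linked array (Gabre, Gabra3 and Gabrq) held 1 RBPJ peak in RGCs, at Gabra3, and the array of the retinal rho subunits Gabrr1 and Gabrr2 held none. A count of 0 at a gene with a small territory says little: the upper limit for Gabrd was 154 peaks per Mb, against 10.3 for Gabrb2.

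Start sites were covered at 10 receptor genes (22.2%, beside 16.0% of all genes), 6 of the glutamate family and 4 of the GABA-A family, among them Grik1, Grik2, Grik4, Gria2, Grin2b, Gabra2 and Gabrg3. RGC lists alone called 7 of these 10 peaks, IPC lists alone 2, that of Grin2b among them, and both called the Gria2 peak. Over all consensus peaks, at start sites or not, the shares were 66.1%, 22.4% and 11.5%. The 10 peaks were thus divided much as all peaks were. Seen over peaks and not genes, 10.9% of receptor peaks lay over a start site (6.01 to 18.9), beside 16.6% of all consensus peaks.

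Receptor peaks lay farther from start sites than consensus peaks in general. The median distance was 73.3 kb, beside 21.1 kb, and 40 of 92 lay over 100 kb away (43.5%, 33.8 to 53.7, beside 22.7%). Within 5 kb lay 15 (16.3%, beside 31.1%). By midpoint, 51 peaks (55.4%) were in an intron and 6 in an exon of their own receptor gene, 5 within 5 kb upstream of its start sites, 29 in intergenic sequence and 1, that of Grin2c, in an intron of another gene. Receptor territories are larger than most, and the part of this in the distances was not tested.

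Sharing between lists was close to that of all peaks. Of the receptor peaks, 15 were called in 2 or more lists (16.3%, 10.1 to 25.2, beside 17.1%), and they belonged to 9 genes: Grik1, Grik3, Grid1, Gria1, Gria2, Gria3, Grin2b, Grin2c and Grm7. These are 9 of the 45 receptor genes, beside 10.9% of all genes with such a peak. The Grik1 and Grid1 peaks called in 3 lists were the most shared. No receptor peak was called in all 4 lists (upper limit 4.01%), beside 141 consensus peaks, or 0.678% of all. RBPJ was called in both cell types at 8 peaks (8.70%, beside 6.85%). Notch was called in both at none (0 of 92, with an upper limit of 4.01%, beside 2.37% of all peaks). Notch and RBPJ together in RGCs were called at 4 (4.35%, beside 7.77%), at Gria1, Grik1, Grin2b and Grin2c. Per Mb of territory, receptor peaks stood at 3.10 in the RGC RBPJ list (genome 5.31), 1.09 in the IPC RBPJ list (2.06), 0.501 in the RGC Notch list (1.39) and 0.273 in the IPC Notch list (0.793). The median width of list peaks at receptor genes was 2969 bp for Notch in RGCs (11 peaks, beside 2389 bp in that list). It was 2183 bp for RBPJ in RGCs (68, beside 2059 bp) and 1678 bp for Notch in IPCs (6, beside 1284 bp). Only for RBPJ in IPCs was it below that of the list (1276.5 bp, over 24, beside 1398 bp). These differences were not tested.

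Consensus peaks were deposited in 8 k-means clusters, set by binding signal in the 4 groups. The receptor peaks fell most often into cluster 8, with 23 of 92 (25.0%, 17.3 to 34.7), beside 14.4% of all peaks. They fell least often into cluster 2 (3 peaks, 3.26%, 1.12 to 9.15, beside 4.76%) and cluster 6 (4 peaks, 4.35%, 1.70 to 10.7, beside 10.8%). Cluster 2 is the smallest cluster over all peaks, and its receptor interval held the share of all peaks. All 23 receptor peaks of cluster 8 were called in the RGC RBPJ list alone. The paper describes this cluster as RBPJ alone in RGCs. The clusters were set by the same signal, so this is not a separate result about receptor genes. The 23 peaks belonged to 13 genes and included both peaks of Gria4 and Grm8, and 8 of the 18 metabotropic peaks. Their median GC content was 37.9%, beside 41.3% for all peaks of cluster 8, and their median distance to a start site was 114 kb, beside 43.2 kb. The clusters in which Notch and RBPJ signals go together, numbered 2, 4, 6 and 7, held 27 receptor peaks (29.3%, 21.0 to 39.3), beside 36.3%. These clusters follow signal and not calls. Of the 27 peaks, the RGC Notch list called 5 and the IPC Notch list 6, and the RGC RBPJ list called 21 and the IPC RBPJ list 10. The 4 receptor peaks of cluster 6 belonged to Grid1, Grik1, Grik3 and Grin2b.

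**Figure D5:**
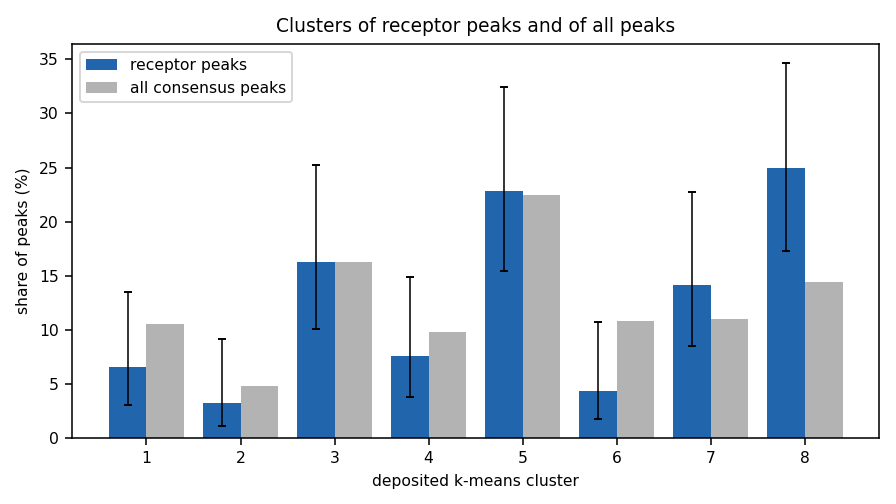
Share of peaks (y axis, %) in each of the 8 deposited clusters (x axis) for the 92 receptor peaks (blue, bars with 95% Wilson intervals) and all 20809 consensus peaks (grey). Cluster 8 holds 25.0% of receptor peaks beside 14.4% of all, and cluster 6 holds 4.35% beside 10.8%.

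Cluster 3 held 15 receptor peaks, and 10 of these contained no GATC site, as did 51.3% of all peaks in that cluster. All 10 were called for RBPJ in IPCs alone, 1 peak a gene, and the genes included Gria1, Gria2, Gria3, Grid1, Grik1, Grik4, Grin2a, Grm4 and Grm5. Dam methylates only GATC, and none of the receptor peaks in the other 7 clusters lacked it. Without these peaks the IPC RBPJ list reached 9 receptor genes and not 14. The matching fall over all genes was not computed. Over all clusters, 10.9% of receptor peaks lacked a GATC site, beside 9.76% of all consensus peaks.

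In sequence the receptor peaks were close to the rest, with a median width of 1940 bp (beside 1890 bp) and a median GC content of 43.0% (beside 45.3%). TTCCCA occurred 1.14 times per kb (0.993 to 1.29), beside 1.17 over all consensus peaks, and TTCCCAC 0.305 times (0.233 to 0.392), beside 0.270. TAATTA, a word of homeodomain proteins, occurred 0.565 times per kb (0.466 to 0.680), beside 0.358, and was found in 54.3% of receptor peaks, beside 45.7%. It holds only A and T, and the lower GC content of the receptor peaks moved with it; that part was not tested. All words were counted on both strands, and TTCCCAC matches are also TTCCCA matches. Among the classes, kainate peaks had 0.449 TAATTA per kb (0.309 to 0.631), and this interval held the 0.358 of all peaks. Only delta peaks (0.806, 0.536 to 1.16) and the 3 group I metabotropic peaks (1.43, 0.618 to 2.82) had intervals above that value.

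Other genes of glutamate and GABA transmission were read from a list of 59 (enzymes, transporters, GABA-B receptors, auxiliary subunits and scaffolds). Of these 59 genes, 40 had a peak, beside a share of 39.7% over all genes. They held 111 peaks in all, or 8.59 per Mb (genome 7.86), and 15 of the 59 had a peak over a start site (beside a share of 16.0%). Uptake transporters stood at 17.4 per Mb (18 peaks, 10 of them at Slc1a3), GABA-B receptors at 15.7 (6 peaks) and enzymes of synthesis and breakdown at 12.3 (9 peaks). Vesicle transporters stood at 9.84 (3 peaks), auxiliary subunits at 9.35 (28 peaks), scaffolds at 6.41 (46 peaks) and the 2 chloride transporters, with 1 peak, at 3.34. Several of these groups hold few peaks, no interval is given for them, and their order was not tested. The genes with most peaks were Slc1a3, the glial glutamate transporter made by radial glia, with 10, then Shisa9, an AMPA receptor auxiliary subunit, and the scaffolds Shank2 and Dlgap2 with 7 each, and the scaffolds Dlg2 and Grip1 with 6 each. At the scaffold gene Dlgap4 a start-site peak at chr2:156719097-156721441 was called for RBPJ in both cell types and for Notch in RGCs alone. No receptor start site was called in 3 lists.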

How the data were processed

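Targeted DamID reads were trimmed, mapped to mm10 and binned by GATC fragment by the authors, who called broad peaks with Macs2 for each pair of a Dam-fusion and a Dam-only sample and kept the peaks present in all pairs of a group (read depth is not given in the sources used here). The deposited files are 4 lists of peak positions and a list of consensus peaks with their k-means cluster; the deposited score columns are constant and hold no height, fold or q-value. No column of a single sample was used.

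From these files, each consensus peak on 21 nuclear chromosomes was called in a list where at least 1 bp overlapped and was given to the nearest protein-coding start site of GENCODE M21 (GRCm38), measured from the peak's edge. Territories exclude unread bases. Sequence was read from GRCm38, and words were counted on both strands with Python 3.11.15, which also ran the intervals (scipy 1.17.1). Start-site assignment and word counts were checked against direct search on simulated positions. No p-value was computed, because the lists carry no replicates. Peaks are given one by one for receptor genes with a start-site peak, with a peak called in 2 or more lists, or among the 10 with most peaks (ties kept), and of the other pathway genes the 5 with most peaks (ties kept) are named. The members, lists and words were chosen with earlier results of these data known. Alternatives to distance, start sites, competing genes, peak filters and chromosomes were computed. Some receptor genes are not reported singly here, though counts over the 45 genes include them.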

Additional observations from a re-analysis of the deposited data

How the results depend on the processing

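The lists combine samples, so no sample could be left out. No paired analysis was possible because the files hold no value per sample. A Grik1-free set left all 11 results, and autosomes alone or distance from the peak midpoint the 10 results computed under them, within their counting interval, or within 1.5 times for counts, and of 95 alternative values 82 did so. When start sites of all annotated genes competed, receptor peaks fell to 45, at 5.98 per Mb (all protein-coding genes 10.8), with 9 genes reached by IPC RBPJ, 2 by IPC Notch, 40.0% of peaks in clusters 2, 4, 6 and 7 and 22.2% over a start site. Limiting peaks to 100 kb left 52, at 5.83 per Mb (9.78 for all genes), 2 genes reached by IPC Notch and 19.2% over a start site. Counting peaks over gene bodies or 5 kb upstream gave 5.57 per Mb (12.1 for all genes). So the density stayed below that of all genes under these 3 settings. The share in clusters 2, 4, 6 and 7 (38.5% within 100 kb) and the share over a start site did not keep their place. With all annotated start sites or the 100 kb limit, both rose above the 36.3% and 16.6% of all peaks under the main rule. Shares of all peaks and counts over all genes were not computed under these settings, so whether those contrasts hold there cannot be told. Requiring a GATC site left 9 receptor genes reached by IPC RBPJ, since the receptor peaks without one were all from that list. The matching count over all genes was not computed. TTCCCAC, a longer word, gave 0.305 per kb. A list peak covering 50% of the shorter peak changed nothing by construction, since consensus peaks contain the list peaks. The least shared of the list peaks overlapped by 51.7% of the shorter, at Grin2b. The absence of a peak at a gene cannot be told from a depth too low to call it.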

Other observations

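Some receptor gene bodies overlapped consensus peaks that were nearer to the start site of another gene and enter only the count over gene bodies above. There were 7 such peaks at 6 receptor genes. Gabrb1, a GABA-A beta subunit with no peak by nearest start site, held 2 in its body: an RBPJ peak in IPCs at chr5:71961362-71962346 and an RBPJ peak in RGCs at chr5:72011994-72012217, both nearest to Commd8. Grin2d, likewise with no peak of its own, held an RBPJ peak in RGCs at chr7:45830382-45831967 that lay over a start site of Grwd1, 35.2 kb from its own start. In Gabrg3 a peak of RBPJ and Notch in RGCs at chr7:56765429-56767153 lay 620 kb from the Gabrg3 start and nearest to Oca2, and it would be the only GABA-A peak called in more than 1 list. In Grin3a a Notch peak in RGCs at chr4:49688743-49689903 lay 6.72 kb from Ppp3r2, a gene inside Grin3a, and 29.3 kb from the Grin3a start. The remaining ones were an RBPJ peak in RGCs in Gria4, at chr9:4463540-4465276, and an RBPJ peak in IPCs in Grik4, at chr9:42636363-42637288.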
